A study of Mus musculus with 18 samples.

Results

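The genes described here are 9 members of the YAP/TEAD pathway and its best known target genes, chosen by symbol from the count table: Ctgf, Cyr61, Ankrd1, Amotl1, Amotl2, Yap1, Wwtr1, Lats2 and Tead1. They are 9 of 23420 gene symbols, and all 9 passed the filter on low counts that left 11762 genes to test. RNA of NIH-3T3 cells, an established line of mouse fibroblasts, was sequenced in 18 libraries, 3 biological replicates in each of 6 groups. Wild-type (WT) cells and Nrf1-knockout (Nrf1-KO) cells were each given DMSO, the vehicle, or 200 nM carfilzomib (CFZ) for 6 h or 24 h. CFZ is an irreversible proteasome inhibitor, and Nrf1, encoded by Nfe2l1, is the transcription factor that raises proteasome gene transcription when the proteasome is inhibited. All cells were grown in DMEM with serum. The knockout had been made with CRISPR/Cas9, and the sources used here do not say whether the line is 1 clone or how long the DMSO cultures were kept, so a property of the line and loss of Nrf1 cannot be told apart.

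YAP, encoded by Yap1, and TAZ, encoded by Wwtr1, are transcriptional coactivators with no DNA-binding domain of their own. In the nucleus they bind TEAD factors such as Tead1, which recognise the motif GGAATG, and switch on genes for matrix, cytoskeleton and growth. The Hippo kinases LATS1 and LATS2 phosphorylate YAP and TAZ, which holds them in the cytoplasm and marks them for ubiquitin-dependent degradation. In fibroblasts, serum, low cell density and tension on the actin cytoskeleton favour nuclear YAP and TAZ. Several targets feed back on the pathway, since the angiomotin-like proteins AMOTL1 and AMOTL2 bind YAP and the kinase LATS2 inhibits it. Only transcripts were measured here, so the values say nothing of protein amount or of where YAP and TAZ were in the cell.

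The libraries held between 8333148 and 23917081 counts each (median 14419832), and 0 of the 18 libraries were closest to a library of another group. Levels are in CPM, the usual unit of counts scaled to library depth, after TMM scaling, differences are log2 fold changes from edgeR's quasi-likelihood test with their standard errors (SE), and p-values were adjusted over all 11762 genes. A gene was called higher or lower at an adjusted p below 0.05 with no minimum fold. The common biological coefficient of variation, which sets counting noise apart, was 3.13% over all genes, so differences of a few percent could pass. Single members spread more or less than this. In WT cells in DMSO, Cyr61 was at 54.84 ± 8.17 CPM and Amotl1 at 158.8 ± 0.81 CPM (SD, n = 3). Nfe2l1 was lower in the Nrf1-KO cells than in WT cells by a log2 difference of -1.31 in DMSO, -0.62 at 6 h and -1.47 at 24 h, and in none of the 3 conditions did the lines' values overlap. The summed level of the 8 fibroblast markers, all 8 of them tested, was 28800 to 36700 CPM in the DMSO and 6 h libraries, 8710 to 9000 CPM in WT cells at 24 h and 11300 to 13200 CPM in Nrf1-KO cells at 24 h. Group means of all 8 were lower at 24 h than in DMSO in WT cells, and of 7 of the 8 in Nrf1-KO cells, where Vim was at 3398 ± 162 CPM in DMSO and 3451 ± 48.3 CPM at 24 h (SD, n = 3), against 3738 ± 17.8 and 1557 ± 21.5 CPM in WT cells. Lists of leukocyte, epithelial, endothelial and muscle markers summed to at most 10.1, 13, 4.33 and 7.43 CPM, with 1 of 4, 2 of 4, 0 of 4 and 1 of 6 markers at 0 in every library. At these low levels the leukocyte sum was 9.35 to 10.1 CPM in WT and 6.21 to 6.62 CPM in Nrf1-KO cells at 24 h, against 0.364 to 2.32 CPM in the other libraries, and the endothelial sum 3.35 to 4.33 CPM against 0.36 to 1.16 CPM. The epithelial sum went from 5.9 to 6.36 CPM in WT and 10.8 to 13 CPM in Nrf1-KO cells in DMSO to 0.333 to 0.813 CPM at 24 h. These marker sums move with every comparison of 24 h libraries with DMSO, and their part in the results was not tested. In bulk RNA, fewer cells that express a gene and less of its RNA per cell cannot be told apart.

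For 7 of the 9 genes RefSeq gives a promoter window, 250 bases before the start site and 50 from it on, on GRCm38.p6; Ctgf and Tead1 had no entry. The windows are shown because TEAD factors are known to act at promoters of this kind. The letters GGAATG, or CATTCC on the other strand, occurred in 7 of the 9 windows of these 7 genes (Wwtr1 and Lats2 have 2 each, and those of Wwtr1 overlap), against 14.7% of all 32851 promoter windows. Both Wwtr1 windows hold the same site, and the Lats2 match lies after the start site, at bases 5 to 10. The genes were chosen as members and targets of the TEAD pathway, so the comparison with all windows is no test of that choice. Ankrd1 alone of these genes held the motif 2 times, which 1.36% of all windows did. Amotl1 and the second Lats2 window held none. The 250 bases before the start site of Cyr61 (chr3:145649986-145650235, minus strand) read as follows, with the TEAD motif in capitals.
Cyr61: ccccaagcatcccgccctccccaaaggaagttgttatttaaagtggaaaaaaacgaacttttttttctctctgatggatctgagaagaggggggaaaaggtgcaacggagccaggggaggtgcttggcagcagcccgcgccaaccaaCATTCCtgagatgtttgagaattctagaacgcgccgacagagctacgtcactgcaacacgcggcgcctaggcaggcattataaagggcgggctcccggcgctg

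Around the other matches, 30 bases each are given 5′ to 3′ on the gene's own strand, with the motif in capitals, so that their flanks can be compared. They lie at chr19:36120037-36120066 and chr19:36119950-36119979 (minus strand) for Ankrd1, chr9:102717727-102717756 (plus strand) for Amotl2, chr9:8004720-8004749 (minus strand) for Yap1, chr3:57576029-57576058 (minus strand) for Wwtr1 and chr14:57746102-57746131 (minus strand) for Lats2.
Ankrd1, first match: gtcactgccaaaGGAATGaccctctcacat
Ankrd1, second match: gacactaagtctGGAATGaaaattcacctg
Amotl2: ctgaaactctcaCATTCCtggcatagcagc
Yap1: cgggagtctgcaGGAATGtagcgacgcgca
Wwtr1: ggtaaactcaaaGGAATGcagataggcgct
Lats2: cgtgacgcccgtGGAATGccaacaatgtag

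Other motifs were searched in the same windows on both strands. The antioxidant response element core TGACNNNGC, which factors of the Nrf1 family bind, was found in Cyr61 (bases -62 to -54 from the start site) and Ankrd1 (bases -72 to -64), and in 12.4% of all windows. The heat shock letters GAANNTTC were found only in Ankrd1 among these windows (7.86% of all), at -118 to -111, sharing 1 base with its second TEAD match at -123 to -118. The AP-1 motif TGANTCA (7.81% of all windows), the cAMP response motif TGACGTCA (1.79%), the ATF4 motif TGATGNAA (3.97%) and the CArG box of serum response factor (1.63%) were found in none of them. These are matches of letters and say nothing of binding.

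By gene annotation (GENCODE M21, GRCm38, which need not be the authors' build), Cyr61 is Ccn1 and Ctgf is Ccn2. Ctgf lies at chr10:24595442-24598683 on the plus strand, and 23.2% of its exonic bases overlap the opposite-strand transcript Gm15270. Lats2 shares 42.4% of its exonic bases with Gm49361 on the same strand, and Yap1 has 1.25% in common with the opposite-strand Gm20416. None of these 3 other symbols is in the count table, and whether reads were counted by strand is not given in the sources used here, so the Lats2 counts and, less so, the Ctgf counts are uncertain. The other 7 genes shared no stretch as long as a read with another gene's transcripts. Per kilobase of exon, the levels in WT cells in DMSO were highest for Ctgf (52.4 ± 6.33 CPM per kb, SD, n = 3) and Amotl2 (48.1 ± 2.82). Cyr61 (27.2 ± 4.05) and Wwtr1 (24.9 ± 0.545) followed, then Yap1 (17.0 ± 0.17), Tead1 (16.8 ± 0.672), Amotl1 (15.8 ± 0.0813), Lats2 (10.9 ± 0.759) and Ankrd1 (6.98 ± 0.376).

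**Figure D1:**
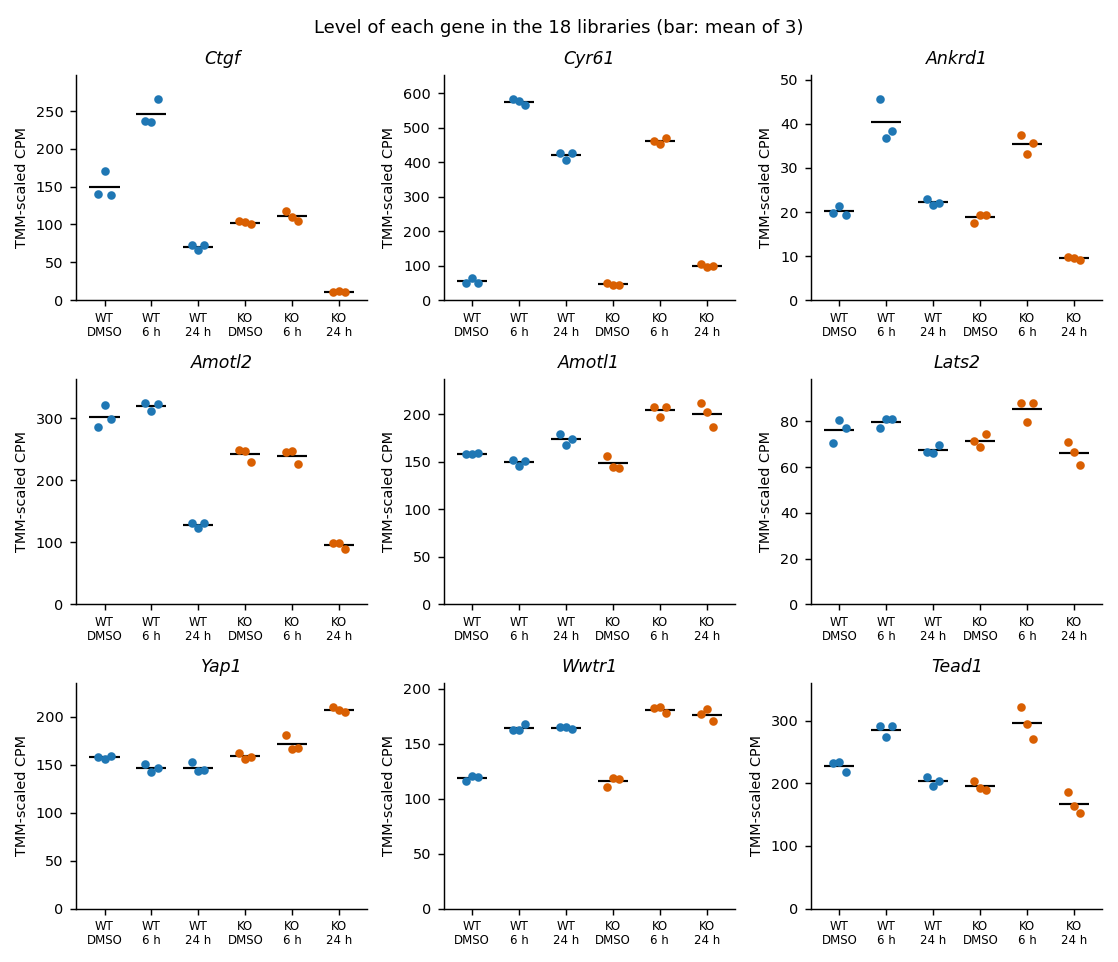
Level (CPM, TMM-scaled) of each of the 9 genes in the 18 libraries. Points are libraries, bars are group means, and each axis starts at 0. Cyr61 was lowest in the 2 DMSO groups and highest at 6 h in both lines, and Ctgf and Ankrd1 were lowest in Nrf1-KO cells at 24 h.

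Ctgf and Cyr61 encode secreted, matrix-associated CCN proteins and are the most widely used readouts of YAP/TAZ activity. They parted after CFZ. Ctgf rose in WT cells at 6 h and was below its DMSO level in both lines at 24 h, while Cyr61 rose in all 4 comparisons of CFZ with DMSO. In WT cells Ctgf was at 139.9, 171 and 139 CPM in DMSO, 236, 236 and 266 CPM at 6 h and 72.3, 66.4 and 72.5 CPM at 24 h. In Nrf1-KO cells it was at 105, 103 and 100.2 CPM in DMSO, 118, 109.5 and 105 CPM at 6 h and 10.9, 12.3 and 11.0 CPM at 24 h. No 2 groups that are neighbours in the order of Ctgf levels overlapped, although in the Nrf1-KO cells the lowest 6 h library was only just above the highest DMSO library. The highest group mean (WT, 6 h) was 21.6 times the lowest (Nrf1-KO, 24 h). The gain at 6 h in WT cells was 1.64-fold (log2 0.72, SE 0.055, adjusted p = 4.4e-13). In Nrf1-KO cells the 6 h difference was 0.12 (95% confidence interval -0.0082 to 0.24, adjusted p = 0.09), and it passed the test only in a model of the compared groups alone (adjusted p = 0.018). At 24 h Ctgf was 2.13-fold lower than in DMSO in WT cells (log2 -1.09, SE 0.0624) and 8.94-fold lower in Nrf1-KO cells (log2 -3.16, SE 0.0856).

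Cyr61 was at 49.5, 64.3 and 50.8 CPM in WT cells in DMSO, 584, 577 and 565 CPM at 6 h and 426, 407 and 426 CPM at 24 h. In Nrf1-KO cells its levels were 48.4, 44.1 and 44.6 CPM in DMSO, 463, 452 and 471 CPM at 6 h and 104, 96.0 and 98.7 CPM at 24 h. All 6 groups were separate, with DMSO lowest and 6 h highest in each line. The rise at 6 h was 10.5-fold in WT cells (log2 3.39, SE 0.0555, adjusted p = 1.4e-30) and 10.1-fold in Nrf1-KO cells (log2 3.34, SE 0.0567, adjusted p = 3.4e-30). At 24 h Cyr61 remained 7.66-fold above DMSO in WT cells (log2 2.94, SE 0.0555) but 2.18-fold above DMSO in Nrf1-KO cells (log2 1.13, SE 0.0601). From 6 h to 24 h it fell 1.37-fold in WT cells and 4.64-fold in Nrf1-KO cells.

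Since both CCN genes were counted in the same libraries, their ratio does not depend on the scaling between libraries. Per kilobase, Cyr61 was at 0.518 ± 0.016 of Ctgf in WT cells in DMSO (SD, n = 3), 3.32 ± 0.28 times Ctgf at 6 h and 8.45 ± 0.19 times at 24 h. In Nrf1-KO cells the ratio was 0.631 ± 0.025, 5.93 ± 0.42 and 12.4 ± 1.3. It was thus higher at each later time in both lines, and the ranges of the 6 groups did not overlap.

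Ankrd1, a titin-binding ankyrin repeat protein of the nucleus and sarcomere, is a YAP/TEAD target with a low level in these cells. In WT cells it was at 19.7, 21.4 and 19.4 CPM in DMSO, 45.7, 36.8 and 38.5 CPM at 6 h and 22.9, 21.7 and 22.1 CPM at 24 h. In Nrf1-KO cells it was at 17.5, 19.4 and 19.4 CPM in DMSO, 37.5, 33.1 and 35.6 CPM at 6 h and 9.79, 9.60 and 9.13 CPM at 24 h. The 6 h libraries of both lines lay above all others, and the Nrf1-KO libraries at 24 h below all others. Ankrd1 rose 2-fold at 6 h in WT cells (log2 1, SE 0.0692, adjusted p = 3.5e-14) and 1.88-fold in Nrf1-KO cells (log2 0.91, SE 0.0727, adjusted p = 1.5e-12). At 24 h the difference from DMSO in WT cells was 0.13 (interval -0.023 to 0.29, adjusted p = 0.11) and -0.003 with upper-quartile scaling, while in Nrf1-KO cells Ankrd1 was 1.98-fold lower (log2 -0.99, SE 0.0894). Muscle markers, which could accompany this gene, summed to 3.96 to 7.43 CPM over all libraries.

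Amotl2 and Amotl1 encode scaffold proteins of cell junctions that bind YAP, and Amotl2 is itself a YAP target. Amotl2 was at 286, 322 and 299 CPM in WT cells in DMSO, 325, 312 and 323 CPM at 6 h and 131, 123 and 132 CPM at 24 h. In Nrf1-KO cells the levels were 248, 248 and 229.5 CPM, 245, 247 and 226 CPM, and 99.4, 98.4 and 89.3 CPM. DMSO and 6 h overlapped in each line, and all 24 h libraries lay below them. The 6 h difference of Amotl2 was 0.08 in WT cells (interval -0.0059 to 0.17, adjusted p = 0.089) and -0.01 in Nrf1-KO cells (interval -0.0996 to 0.081, adjusted p = 0.86), the first turning to -0.05 and the second passing the test as lower when libraries were scaled by size alone. The difference in WT cells passed the test as higher with the compared groups only (0.08, adjusted p = 0.035) and without WT DMSO replicate 2 (0.13, adjusted p = 0.013). At 24 h it was 2.35-fold lower in WT cells (log2 -1.23, SE 0.0457) and 2.52-fold lower in Nrf1-KO cells (log2 -1.33, SE 0.0467).

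Amotl1 did not follow its paralog. Its levels in WT cells were 159, 158 and 159.7 CPM in DMSO, 152, 146 and 152 CPM at 6 h and 179, 168 and 175 CPM at 24 h. In Nrf1-KO cells they were 156, 145 and 144 CPM, 207, 198 and 208 CPM, and 212, 202 and 187 CPM. The 6 treated Nrf1-KO libraries were thus the highest, 187 CPM or more, and the WT libraries moved little. In Nrf1-KO cells Amotl1 rose 1.38-fold at 6 h (log2 0.46, SE 0.0408, adjusted p = 1.5e-11) and was 1.35-fold above DMSO at 24 h (log2 0.44, SE 0.0398). In WT cells the 6 h difference was -0.09 (adjusted p = 0.064) and passed the test as lower in 6 of 13 alternative analyses, and the 24 h difference of 0.13 (adjusted p = 0.0048) was -0.01 with upper-quartile scaling (adjusted p = 0.83). The ratio of Amotl1 to Amotl2 per kilobase, free of scaling, was 0.329 ± 0.02, 0.292 ± 0.00049 and 0.844 ± 0.012 in WT cells (DMSO, 6 h and 24 h in this order). In Nrf1-KO cells it was 0.384 ± 0.016, 0.535 ± 0.038 and 1.31 ± 0.025, so that Amotl1 exceeded Amotl2 per length only in Nrf1-KO cells at 24 h. This rests on the annotated exon lengths, 10064 bases for Amotl1 and 6289 for Amotl2. In CPM, without division by length, Amotl1 was above Amotl2 in WT cells at 24 h too (means of 173.8 and 128.7 CPM).

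**Figure D2:**
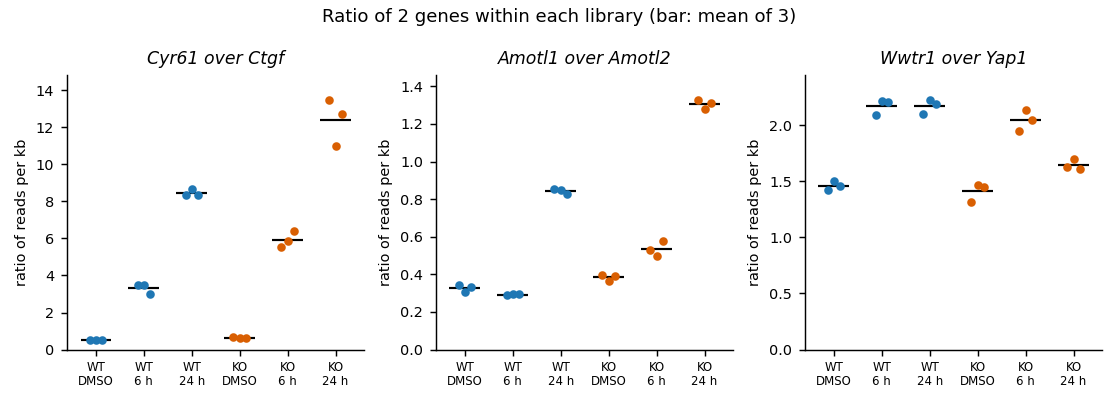
Ratios of CPM per kilobase within each library, for Cyr61 over Ctgf, Amotl1 over Amotl2 and Wwtr1 over Yap1. Points are libraries and bars are group means. The Cyr61 to Ctgf ratio was 0.501 to 0.533 in WT cells in DMSO and 11.0 to 13.5 in Nrf1-KO cells at 24 h.

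Lats2, the kinase that inhibits YAP and is a YAP target in turn, moved least of the 9 genes, with a highest group mean 1.29 times the lowest. It was at 70.3, 80.7 and 77 CPM in WT cells in DMSO, 77.1, 80.9 and 81.0 CPM at 6 h and 66.7, 66.0 and 69.7 CPM at 24 h. In Nrf1-KO cells the levels were 71.6, 68.9 and 74.2 CPM, 87.8, 79.7 and 88.0 CPM, and 70.9, 66.6 and 60.7 CPM. Every group overlapped its neighbour in the order of levels. Lats2 was called higher at 6 h in Nrf1-KO cells (log2 0.24, SE 0.053, adjusted p = 0.00016) and lower at 24 h in both lines, by -0.17 in WT cells (adjusted p = 0.0046) and -0.12 in Nrf1-KO cells (adjusted p = 0.032). Neither 24 h call was stable: without WT DMSO replicate 2 the first had an adjusted p of 0.053, and the second had 0.14 without Nrf1-KO DMSO replicate 3 and 0.081 without Nrf1-KO 24 h replicate 3. They were larger without WT DMSO replicate 1 (-0.26) and without Nrf1-KO 24 h replicate 1 (-0.20). The 6 h difference in WT cells was 0.07 (adjusted p = 0.23), and -0.06 with scaling by library size.

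The coactivator genes differed from each other. Yap1 in WT cells was at 158, 156 and 159 CPM in DMSO, 151, 142 and 147 CPM at 6 h and 153, 144 and 144 CPM at 24 h. In Nrf1-KO cells it was at 162, 157 and 158 CPM in DMSO, 181, 166 and 168 CPM at 6 h and 210.3, 207 and 205 CPM at 24 h. The 3 Nrf1-KO libraries at 24 h were the highest of all 18. Yap1 was slightly lower after CFZ in WT cells, with log2 differences of -0.10 (6 h, adjusted p = 0.013) and -0.11 (24 h, adjusted p = 0.009), and with an adjusted p of 0.11 without WT 6 h replicate 2 and 0.05 without WT 24 h replicate 2. In Nrf1-KO cells it rose 1.31-fold at 24 h (log2 0.38, SE 0.0349, adjusted p = 9.4e-12). Its 6 h call there (0.11, adjusted p = 0.0071) was lost with upper-quartile scaling (adjusted p = 0.35), with scaling by library size (0.0003, adjusted p = 1), with no filter (adjusted p = 0.21) and without Nrf1-KO 6 h replicate 1 (adjusted p = 0.11).

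Wwtr1, the gene of TAZ, rose in both lines at both times. Its levels in WT cells were 116, 121 and 120.2 CPM in DMSO, 163, 163 and 168 CPM at 6 h and 166, 165 and 164 CPM at 24 h. In Nrf1-KO cells they were 110.5, 119 and 118 CPM, 182, 183.4 and 178 CPM, and 177, 182 and 170.3 CPM. All 12 treated libraries lay above all 6 DMSO libraries. The rise was 1.39-fold at 6 h and at 24 h in WT cells (log2 0.47 at both times, SE 0.0357 and 0.0356) and 1.56-fold and 1.52-fold in Nrf1-KO cells (log2 0.64 and 0.60, SE 0.0358 and 0.0349). From 6 h to 24 h the difference was 0.001 in WT cells (interval -0.071 to 0.074) and -0.04 in Nrf1-KO cells (interval -0.11 to 0.032), the first of which turned negative and the second of which passed the test as lower (-0.11, adjusted p = 0.0083) under other scalings. Per kilobase Wwtr1 was 1.46 ± 0.038, 2.17 ± 0.073 and 2.17 ± 0.067 times Yap1 in WT cells in DMSO, at 6 h and at 24 h, and 1.41 ± 0.083, 2.05 ± 0.093 and 1.65 ± 0.049 times in Nrf1-KO cells.

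Tead1, the DNA-binding partner, rose at 6 h and fell at 24 h in both lines. In WT cells it was at 232, 235 and 218 CPM in DMSO, 291, 275 and 292 CPM at 6 h and 210.5, 196 and 204 CPM at 24 h. In Nrf1-KO cells it was at 204, 192 and 189.5 CPM, 322, 294 and 272 CPM, and 186, 164 and 153 CPM. In each line the 3 conditions did not overlap. The rise at 6 h was 1.25-fold in WT cells (log2 0.32, SE 0.0526, adjusted p = 2.2e-06) and 1.52-fold in Nrf1-KO cells (log2 0.61, SE 0.0533, adjusted p = 1.4e-11). The 24 h differences from DMSO were -0.17 in WT cells (adjusted p = 0.005) and -0.22 in Nrf1-KO cells (adjusted p = 0.00041), the latter -0.33 without Nrf1-KO 24 h replicate 1.

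**Figure D3:**
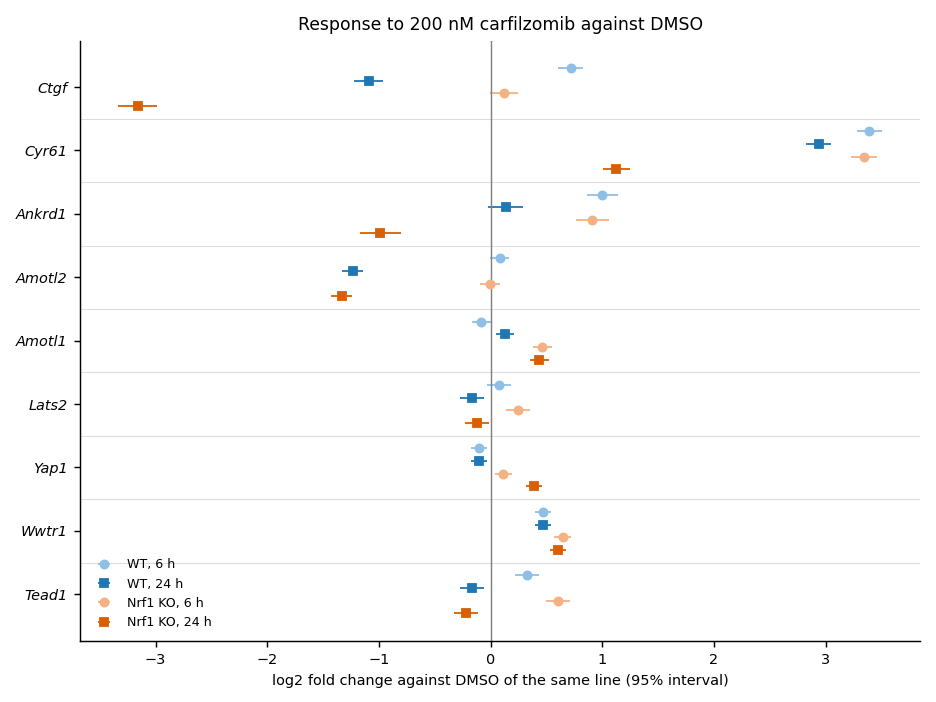
Log2 fold change of the 9 genes at 6 h and 24 h of CFZ against DMSO of the same line, with 95% confidence intervals. Points are fits over 3 replicates a group. Cyr61 is above 1 in all 4 comparisons, and Ctgf reaches -3.16 in Nrf1-KO cells at 24 h.

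In all, 5 of the 9 genes were higher and 1 lower at 6 h in WT cells, where 35.6% of all tested genes were higher and 36.2% lower. At 6 h in Nrf1-KO cells 7 of the 9 were higher and 0 lower in the edgeR test (0 also at an unadjusted p under 0.05 and with DESeq2), where 34.5% of all genes were higher and 35.0% lower. At 24 h in WT cells 3 were higher and 5 lower, against 43.2% and 40.5% of all genes. At 24 h in Nrf1-KO cells 4 were higher and 5 lower, against 44.4% and 41.1%. From 6 h to 24 h, 1 was higher and 6 were lower in WT cells (36.9% and 35.4% of all genes) and likewise 1 and 6 in Nrf1-KO cells (38.7% and 38.3%). The median log2 difference over the 9 genes was 0.32 at 6 h and -0.11 at 24 h in WT cells and 0.46 and -0.12 in Nrf1-KO cells, beside medians of -0.02, 0.02, -0.01 and 0.03 over all tested genes. All of these comparisons within a line share its DMSO or its 6 h libraries. Scaling by upper quartiles or by library size shifted the median of all genes by -0.103 to -0.182 in some comparisons of CFZ with DMSO. With it the share of higher genes among those called at 6 h in WT cells went from 49.6% to 37.9% and 35.4%. In Nrf1-KO cells library size alone took it from 49.7% to 36.4% after 6 h, and after 24 h from 52.0% to 41.6%.

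The lines were then compared within each condition. In DMSO, Ctgf was 1.46-fold lower in Nrf1-KO cells (log2 -0.55, SE 0.0576, adjusted p = 1.6e-09), Amotl2 1.25-fold lower (-0.32, adjusted p = 1.2e-07), Cyr61 1.2-fold lower (-0.27, adjusted p = 0.00072) and Tead1 1.17-fold lower (-0.23, adjusted p = 0.00051). The fifth gene called lower, Amotl1 (-0.10, adjusted p = 0.036), lost its call in 10 of 13 alternatives, and the difference of Cyr61 was -0.14 (adjusted p = 0.03) without WT DMSO replicate 2. The 5 genes called lower and 0 called higher (0 also at an unadjusted p under 0.05 and with DESeq2) stand beside 29.1% and 25.7% of all genes. With library size alone the share of higher genes among those called went from 46.9% to 57.7%. Yap1 (0.01, interval -0.061 to 0.083), Wwtr1 (-0.03, interval -0.11 to 0.040), Lats2 and Ankrd1 did not pass the test, and Yap1 and Wwtr1 changed sign in 1 alternative each.

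At 6 h, Ctgf was 2.21-fold lower in Nrf1-KO cells (log2 -1.15, SE 0.0591), Amotl2 1.33-fold lower and Cyr61 1.25-fold lower, while Amotl1 was 1.36-fold higher (0.45, SE 0.0418), Yap1 1.17-fold higher and Wwtr1 1.1-fold higher. Ankrd1 was called lower (-0.19, adjusted p = 0.018) with overlapping values and lost the call in 5 of 13 alternatives, among them those without WT 6 h replicate 1 (adjusted p = 0.2) and without Nrf1-KO 6 h replicate 2 (adjusted p = 0.13). That made 3 genes higher and 4 lower, against 30.5% and 30.8% of all genes, whose share of higher calls went from 49.8% to 60.8% with library size alone. At 24 h the CCN genes and Ankrd1 were far apart between the lines. Ctgf was 6.13-fold lower in Nrf1-KO cells (log2 -2.62, SE 0.0922), Cyr61 4.22-fold lower (-2.08, SE 0.0522) and Ankrd1 2.33-fold lower (-1.22, SE 0.091), each without overlap. Amotl2 (-0.42) and Tead1 (-0.28) were also lower, and Yap1 (0.50, SE 0.0359), Amotl1 (0.21) and Wwtr1 (0.10) higher, the last not with scaling by library size (adjusted p = 0.092). In all 3 genes were higher and 5 lower, against 35.6% and 36.4% of all genes.

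**Figure D4:**
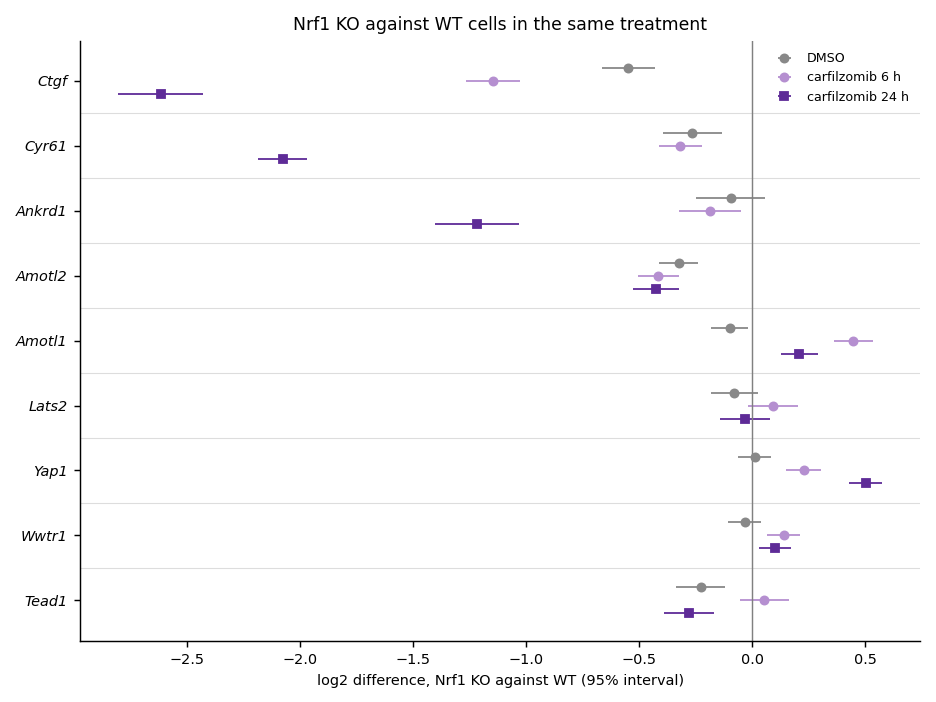
Log2 difference of Nrf1-KO from WT cells for the 9 genes in DMSO, at 6 h and at 24 h of CFZ, with 95% confidence intervals. The differences of Ctgf, Cyr61 and Ankrd1 at 24 h are -2.62, -2.08 and -1.22, and those of Yap1 and Amotl1 at 6 h and 24 h are above 0.

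Whether the response itself differed between the lines was tested by the interaction, the log2 response to CFZ in Nrf1-KO cells minus that in WT cells. It uses the same libraries as the comparisons above. At 6 h the response of Ctgf was smaller in Nrf1-KO cells (-0.60, SE 0.0827, adjusted p = 6.2e-07), and those of Amotl1 (0.55, SE 0.058), Tead1 (0.28, SE 0.0748), Yap1 (0.22, SE 0.0515) and Wwtr1 (0.17, SE 0.0505) were more positive. Thus 4 genes were higher and 1 lower, against 19.8% and 18.4% of all genes. For Cyr61 the difference of responses at 6 h was -0.05 (interval -0.21 to 0.11, adjusted p = 0.64), or -0.18 and past the test without WT DMSO replicate 2 (adjusted p = 0.022), which had the highest DMSO level. For Ankrd1 it was -0.09 (interval -0.30 to 0.12, adjusted p = 0.52) and for Amotl2 -0.09 (interval -0.22 to 0.035, adjusted p = 0.26). The value for Lats2 was 0.17 (adjusted p = 0.067), and it passed the test in 6 of 19 alternatives.

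At 24 h the interaction was -2.07 for Ctgf (SE 0.112, adjusted p = 2.2e-16), -1.81 for Cyr61 (SE 0.0823, adjusted p = 3.2e-18) and -1.12 for Ankrd1 (SE 0.119, adjusted p = 1.3e-09), so the response was 4.19-, 3.51- and 2.18-fold lower in Nrf1-KO cells. These 3 target genes kept the direction and the call in all 19 alternatives. In the other direction, Yap1 had 0.49 (SE 0.0504, adjusted p = 7.4e-10) and Amotl1 0.31 (SE 0.0569, adjusted p = 2.4e-05), also called in all 19. Wwtr1 had 0.13 (adjusted p = 0.022), lost in 5 of 19, among them those without WT DMSO replicate 2 (0.053), without WT DMSO replicate 3 (0.05), without Nrf1-KO DMSO replicate 1 (0.085) and without Nrf1-KO 24 h replicate 2 (0.091). That gave 3 genes higher and 3 lower, against 29.7% and 30.0% of all genes. Amotl2, which fell at 24 h in both lines, had an interaction of -0.10 (interval -0.23 to 0.033, adjusted p = 0.19), Lats2 0.05 and Tead1 -0.05 (interval -0.21 to 0.10, adjusted p = 0.57). Scaling by library size brought Amotl2 past the test (-0.18, adjusted p = 0.02) and turned Lats2 to -0.03. At 6 h of CFZ the summed fibroblast markers of the lines overlapped (29800 to 32200 CPM in WT, 30200 to 33800 CPM in Nrf1-KO cells), and at 24 h they did not.

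Differences of at least 2-fold were fewer and lay among the targets. At 6 h Cyr61 and Ankrd1 were that much higher in WT cells, where 3.98% of all tested genes were higher and 5.65% lower by this measure, and Cyr61 in Nrf1-KO cells (3.30% and 4.26% of all). At 24 h Cyr61 was at least 2-fold higher and Ctgf and Amotl2 lower in both lines, beside 10.5% and 14.5% of all genes in WT and 11.5% and 15.2% in Nrf1-KO cells. Some of these lay near the cut. At 6 h Ankrd1 ranged over the alternatives from 0.868 to 1.07 in WT cells, and it was 1.88-fold higher in Nrf1-KO cells. At 24 h the ranges were -1.23 to -0.988 for Ctgf in WT cells. In Nrf1-KO cells they were 0.943 to 1.16 for Cyr61 and -1.17 to -0.963 for Ankrd1. From 6 h to 24 h Ctgf and Amotl2 were lower in WT cells (5.16% of all genes higher and 6.92% lower), and these 2 with Cyr61 and Ankrd1 in Nrf1-KO cells (6.56% and 9.22%). Between the lines no member differed by 2-fold in DMSO, whatever its p (3.20% and 1.77% of all genes did), Ctgf was lower in Nrf1-KO cells at 6 h (4.31% and 3.00%), and Ctgf, Cyr61 and Ankrd1 were lower at 24 h (6.71% and 5.53%). The interaction of these 3 reached that size at 24 h (4.07% and 4.53% of all genes), and that of no member did at 6 h (1.21% and 1.57%).

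Beside the 9 genes, lists of other pathway genes were counted. Of 17 other genes of a YAP/TAZ signature, 15 were tested, and more were lower than higher after CFZ. In WT cells 2 were higher and 11 lower at 6 h (35.6% and 36.2% of all tested genes) and 1 higher and 12 lower at 24 h (43.2% and 40.5%). In Nrf1-KO cells the counts were 3 and 9 at 6 h (34.5% and 35.0% of all) and 2 and 11 at 24 h (44.4% and 41.1%). Their median log2 differences were -0.28 and -0.49 in WT cells and -0.18 and -0.62 in Nrf1-KO cells. The lowest at 24 h in WT cells were Asap1, an Arf GTPase-activating protein (-1.84, SE 0.0392, and -1.97 in Nrf1-KO cells), and Axl, a receptor tyrosine kinase (-1.03, SE 0.0391, and -1.85). The most positive were Gadd45a, a stress and DNA damage response gene (2.66, SE 0.0412, and 2.94), and Fjx1 (0.34, adjusted p = 0.088, and -0.21, adjusted p = 0.33). In the interaction at 24 h 4 of the 15 were higher and 9 lower, with a median of -0.36, against 29.7% and 30.0% of all genes. Of the 9 genes and these 15, Cyr61 and Gadd45a alone were more than 2-fold above DMSO at both times in WT cells, where 3.98% of all genes were at least 2-fold higher at 6 h and 10.5% at 24 h.

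**Figure D5:**
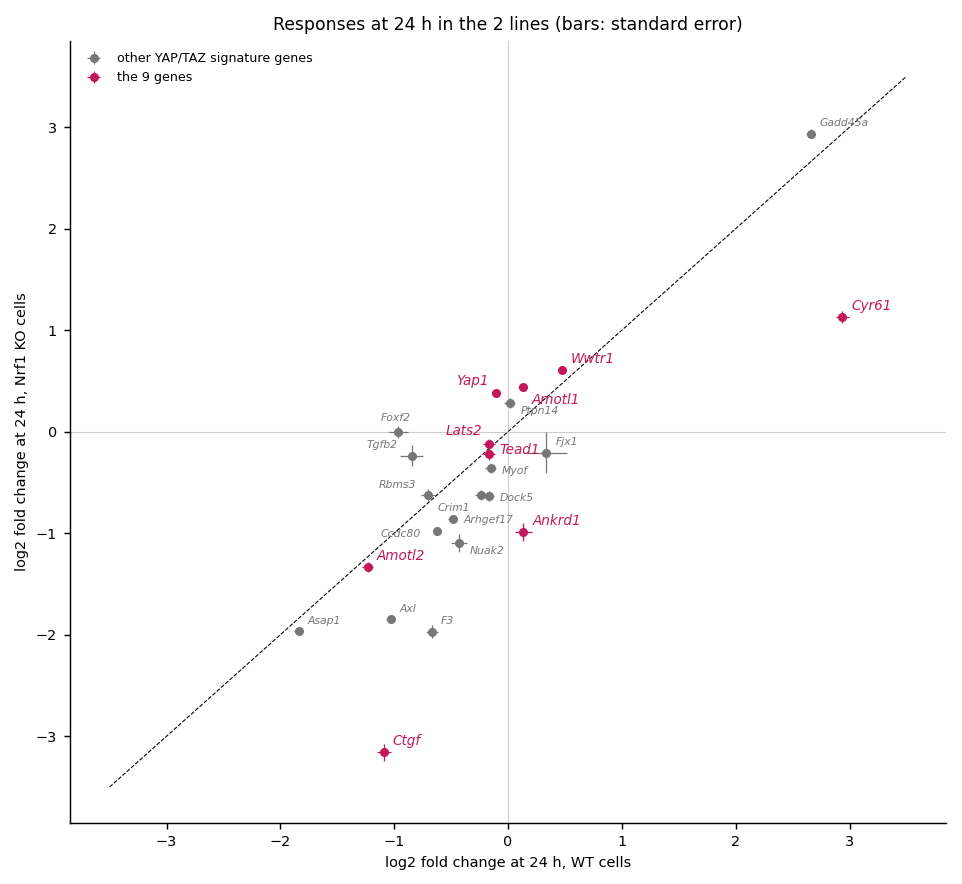
Log2 fold change at 24 h of CFZ against DMSO in Nrf1-KO cells (vertical axis) against that in WT cells (horizontal axis) for the 9 genes and the 15 other tested YAP/TAZ signature genes, with standard errors. The dashed line marks equal values. Ctgf, Cyr61 and Ankrd1 lie below it, and Cyr61 and Gadd45a stand apart at the right.

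Of 22 Hippo kinases and upstream regulators, 21 were tested. At 24 h 10 were higher and 8 lower in WT cells (median 0.07) and 11 higher and 6 lower in Nrf1-KO cells (median 0.11), and at 6 h 11 and 5, and 12 and 2. Over all tested genes 43.2% were higher and 40.5% lower at 24 h in WT cells and 44.4% and 41.1% in Nrf1-KO cells, with 35.6% and 36.2%, and 34.5% and 35.0%, at 6 h. The 6 h counts of this list depend on the scaling. With upper-quartile scaling several of its genes lost a higher call and several others were called lower, in both lines. Rassf1, a scaffold that activates the kinase MST (1.11, SE 0.0496, and 1.57), and Limd1, a LIM protein that restrains LATS (0.95, SE 0.0422, and 1.11 in Nrf1-KO cells), were the most positive at 24 h in WT cells. Fat4, an atypical cadherin (-3.70, SE 0.139, and -2.19), and Ajuba, another LIM protein (-0.93, SE 0.0577, and -1.39), were the most negative there. Mean levels of Fat4 in DMSO were 17.32 CPM in WT and 5.694 CPM in Nrf1-KO cells. By 24 h they were low in both lines, at 1.32 and 1.241 CPM (mean counts of 19 and 20). Among 12 enzymes that add or remove ubiquitin or mark YAP, LATS or angiomotins for turnover, 7 were higher and 4 lower at 24 h in WT cells (median 0.14) and 7 higher and 3 lower in Nrf1-KO cells (median 0.31), after 8 and 3, and 10 and 2, at 6 h, beside the same shares of all genes. Of the 6 h calls in Nrf1-KO cells, Btrc and Usp9x lost theirs as higher with upper-quartile scaling (adjusted p = 0.3 and 0.1). They also lost them with library size alone (adjusted p = 0.6 and 0.37). Wwp1 was called lower at 6 h in WT cells with either scaling (adjusted p = 0.0059 and 0.0017). The ubiquitin ligase gene Nedd4l rose at 24 h (1.87, SE 0.0476, and 2.35) while its paralog Nedd4 fell (-1.38, SE 0.0317, and -1.07). Tnks, a tankyrase that marks angiomotins, rose (1.28, SE 0.0508, and 0.93), and Otub2, a deubiquitinase, fell (-1.71, SE 0.1, and -0.98).

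Of 7 other TEAD and VGLL cofactor genes 5 were tested, of which 0 were higher and 4 lower at 6 h and 2 higher and 3 lower at 24 h in WT cells, and 0 and 2, and 3 and 2, in Nrf1-KO cells (edgeR, with 0 higher at 6 h also at an unadjusted p under 0.05 and with DESeq2). The shares over all genes were 35.6% and 36.2%, and 43.2% and 40.5%, in WT cells and 34.5% and 35.0%, and 44.4% and 41.1%, in Nrf1-KO cells. In Nrf1-KO cells at 6 h Tead3 was also called lower with upper-quartile scaling (-0.17, adjusted p = 0.02). With library size alone both Tead3 (-0.21, adjusted p = 0.0048) and Tead2 (-0.11, adjusted p = 0.026) were called lower there. At 24 h Vgll4, which competes with YAP for TEAD, rose (0.93, SE 0.0776, and 1.81), whereas Vgll3, another TEAD cofactor, fell (-0.94, SE 0.0459, and -2.55). Tead3 fell (-0.96, SE 0.0653, and -0.41), and Tead4 was called higher (0.13, adjusted p = 0.021, and 0.59), although in WT cells its value was -0.01 with upper-quartile scaling. Tead2, chosen after its values were seen, was the one that moved in opposite directions, at -0.53 in WT cells and 1.03 in Nrf1-KO cells at 24 h. Of 4 other CCN genes 3 were tested. At 24 h 0 were higher and 2 lower in WT cells and 0 higher and 3 lower in Nrf1-KO cells, after 1 and 1, and 1 and 2, at 6 h, and at 24 h the 0 also held at an unadjusted p under 0.05 and with DESeq2. Wisp2, the least of them, was at -5.63 (SE 0.0831) in WT cells at 24 h, and Nov at -0.29 (adjusted p = 0.71). Both rest in part on few reads. Nov had a mean count of 3 in DMSO and 2 at 24 h in WT cells. Wisp2 in Nrf1-KO cells had a mean of 11.66 CPM in DMSO, against 118.4 CPM in WT cells, and a mean count of 3.333 at 24 h.

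Of 16 actin and cytoskeletal genes linked to serum response factor, all 16 were tested. In WT cells 11 were higher and 4 lower at 6 h and 2 higher and 12 lower at 24 h (medians 0.30 and -0.41), against 35.6% and 36.2% of all genes at 6 h and 43.2% and 40.5% at 24 h. In Nrf1-KO cells 12 were higher and 2 lower at 6 h and 3 higher and 11 lower at 24 h (medians 0.23 and -0.67), against 34.5% and 35.0%, and 44.4% and 41.1%. At 6 h in these cells Cnn2 and Tpm1 lost their higher call with upper-quartile scaling (adjusted p = 0.28 and 0.23). Library size alone took it from both (adjusted p = 0.97 and 0.82) and from Actb (0.069) and Filip1l (0.11). Mkl2 was called lower with either scaling (adjusted p = 0.011 and 0.0023). In WT cells at 6 h Actb (adjusted p = 0.05) and Filip1l (0.061) lost the call with library size alone. Acta2, smooth muscle actin, was at 0.61 at 6 h and -1.73 at 24 h in WT cells and 0.48 and -3.19 in Nrf1-KO cells, all called. Cnn2, a calponin, was at -1.59 and -3.05 at 24 h. The cytoplasmic actin gene Actg1 was higher at 24 h in WT cells (0.17) and lower in Nrf1-KO cells (-0.68), the former not with upper-quartile scaling (0.03, adjusted p = 0.31). Zyx, a focal adhesion protein, was higher in both (0.63 and 1.41). The interaction at 24 h was -1.46 for Acta2 (SE 0.0713) and -0.85 for Actg1 (SE 0.0437).

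For each of the 9 genes the 3 tested genes with the most similar log2 CPM over the 18 libraries were found by Pearson's r. The libraries share groups and scaling, so these values are a description. For Ctgf they were Grk6 (r = 0.992), Acta2 (0.991) and F3 (0.985), for Cyr61 Copb1 (0.992), Whsc1l1 (0.978) and Zfyve20 (0.976), and for Ankrd1 Actg1 (0.983), Ate1 (0.972) and 5830418K08Rik (0.968). Acta2 and Actg1 are in the actin list above, and F3, tissue factor, is in the YAP/TAZ signature. For Amotl2 they were Ralgapb (0.989), Tnr (0.988) and a row whose symbol spreadsheet software had turned into a date (0.992), and for Amotl1 Foxk1 (0.949), Nbea (0.948) and Sorcs2 (0.93). For Yap1 they were D630045J12Rik (0.968), Zfp664 (0.957) and Znrf3 (0.956), and for Wwtr1 Ahsa2 (0.993), Ccdc117 (0.99) and Dnaja4 (0.99), the first and last of which encode HSP90 and HSP70 cochaperones. For Tead1 they were Foxo3 (0.961), Cdc42bpa (0.959) and Tgfb1i1 (0.955), and for Lats2 Cdc42bpa (0.916), Ahctf1 (0.91) and Zfp449 (0.902). Among the 9 genes themselves r over the 18 libraries was 0.917 for Ctgf with Amotl2, 0.92 for Ankrd1 with Tead1, 0.26 for Ctgf with Cyr61 and -0.832 for Ctgf with Yap1.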

How the data were processed

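The authors prepared mRNA libraries with a stranded kit, read both ends of each fragment, and used Illumina's RNA Express, which runs STAR and DESeq2. They deposited 1 table of raw counts, whole reads per gene symbol and library, without normalization. Versions, genome build and annotation are not given in the sources used here. Of the 23420 symbols 6577 had no count, and spreadsheet software had turned 27 into dates.

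Groups came from the sample labels. Counts were filtered (filterByExpr, minimum count 10, minimum total count 15), TMM-scaled and fitted with edgeR 4.0.16 in R 4.3.3, in 1 quasi-likelihood model of 6 groups over all 18 libraries, with Benjamini-Hochberg adjustment over 11762 genes. SE was obtained from the log2 difference and the root of its F statistic. CPM carry no prior; correlations used log2 CPM with a prior count of 2. Alternatives were DESeq2 1.42.0, other scalings (upper quartile, library size), no filter (at least 1 count), a mean count of at least 10, the compared groups only, a replicate block, a minimum fold of 2 and each library left out. The method was also run on simulated counts with the same spread for every gene and few genes changed. These data differ in both, so that run is no check of the calls given here.

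The members and lists were chosen with earlier results of these data known. Named are all 9 members, Nfe2l1 as the check of the knockout, of each list the 2 most positive and 2 most negative genes at 24 h in WT cells (1 and 1 where fewer than 5 were tested), and for each member the 3 genes most like it (Acta2 and Actg1 come under both of the last). Tead2, the marker Vim and the list genes given because their 6 h call depended on the scaling were named after their values were seen. Replicates differed by more than sampling noise (chi-square per degree of freedom 1.438 to 8.469 for genes whose counts in the pair sum to 20 or more). They differed most in Nrf1-KO cells, with 3.292 to 8.469 at 24 h and 2.505 to 5.504 in DMSO. It was at most 2.623 in Nrf1-KO cells at 6 h and 2.495 in WT cells. Counting error weighs most on the members with the fewest reads. These were Ankrd1 (139, 173 and 144 reads) and Ctgf (155, 222 and 173 reads) in Nrf1-KO cells at 24 h. Coordinates and exon lengths are from GENCODE M21 and promoter sequences from RefSeq (GRCm38.p6).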

Additional observations from a re-analysis of the deposited data

Results flagged for a closer look

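The responses of several of the 9 genes to CFZ differed between Nrf1-KO and WT cells by the test of the difference itself, the interaction in edgeR's quasi-likelihood model (3 libraries a group, log2 response in Nrf1-KO minus WT cells). At 6 h these were Ctgf (-0.599), Amotl1 (0.547), Tead1 (0.281), Yap1 (0.216) and Wwtr1 (0.173). At 24 h they were Ctgf (-2.07), Cyr61 (-1.81), Ankrd1 (-1.12), Yap1 (0.490), Amotl1 (0.309) and Wwtr1 (0.133). Of these 11 differences, that of Wwtr1 at 24 h lost its call in 5 of 19 alternative analyses, and the other 10 kept theirs in all 19. Groups of 3 were too small for a search for outlying libraries.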

How the results depend on the processing

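Over the 9 genes and 11 comparisons, 1395 alternative values were computed, of which 1307 kept both direction and side of the threshold, 33 lost a call, 24 gained one and 31 changed sign (14 differences); the cause was not tested. With a minimum fold of 2, the counts of genes higher and lower became 2 and 0 at 6 h and 1 and 2 at 24 h in WT cells, 0 and 2 from 6 h to 24 h there, 1 higher at 6 h, 1 and 2 at 24 h and 0 higher from 6 h to 24 h in Nrf1-KO cells, 0 lower between the lines in DMSO, 0 and 1 at 6 h, 0 and 3 at 24 h, and in the interaction 0 and 0 at 6 h and 0 higher at 24 h. The count lower at 6 h in WT cells went from 1 to 2, since Amotl1 passed, with upper-quartile scaling, library size alone, no expression filter, the replicate block, DESeq2 and the compared groups only, and ranged from 0 to 1 when libraries were left out. With library size alone 1 gene was lower at 6 h in Nrf1-KO cells and 5 were higher in Nrf1-KO than in WT cells at 6 h. Without WT DMSO replicate 2, 2 genes were lower in the interaction at 6 h, and without each other library 1. The values that changed sign were near 0. With upper-quartile scaling these were Amotl2 (-0.028) and Lats2 (-0.038) at 6 h and Ankrd1 (-0.0031) and Amotl1 (-0.0091) at 24 h in WT cells, Wwtr1 from 6 h to 24 h in WT cells (-0.027) and Lats2 between the lines at 24 h (0.0089). With library size alone they were Amotl2 (-0.051) and Lats2 (-0.061) at 6 h in WT cells, Yap1 from 6 h to 24 h in WT cells (0.025), Wwtr1 between the lines in DMSO (0.014) and Lats2 in the interaction at 24 h (-0.031). From 6 h to 24 h in WT cells Wwtr1 was at -0.027 with no expression filter, -0.0082 with the compared groups only and -1.23e-05 with the replicate block, and Yap1 at 0.0028 with DESeq2. When each library was left out in turn, sign changes gave these ranges: Yap1 -0.0045 to 0.030 between the lines in DMSO and -0.062 to 0.015 from 6 h to 24 h in WT cells; Wwtr1 -0.047 to 0.0065 from 6 h to 24 h in WT cells; Amotl2 -0.049 to 0.027 at 6 h and Amotl1 -0.078 to 0.0082 from 6 h to 24 h in Nrf1-KO cells. Between the lines Tead1 ranged from -0.013 to 0.11 at 6 h and Lats2 from -0.065 to 0.040 at 24 h, and in the interaction at 24 h Lats2 from -0.0051 to 0.10 and Tead1 from -0.13 to 0.0071. Replicate numbers are shared between groups, but libraries of the same number did not deviate together (mean r 0.0136 over 45 pairs, 0 of them over 0.1, with 8 of 18 libraries correlating best with their own number), so the numbers are not taken as pairs; the replicate block moved no other count of the 9 genes by over 1.5 times.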
